A study of Mus musculus with 8 samples.

Results

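The circadian clock is a feedback loop of transcription. CLOCK and BMAL1 (the product of Arntl) switch on the Period (Per) and Cryptochrome (Cry) genes through E-box sequences, and PER and CRY proteins then repress CLOCK and BMAL1. A second loop sets Arntl itself: the nuclear receptors REV-ERBα and REV-ERBβ (Nr1d1 and Nr1d2) repress it and RORα (Rora) activates it through a shared DNA element. DBP and TEF, which bind D-box sequences and are opposed there by NFIL3, carry the rhythm to output genes. In skeletal muscle this clock times fuel use and myogenic gene expression.

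The genes described are 10 clock repressors and outputs, taken by name from a table of 25655 gene rows: Per1, Per2, Per3, Cry1, Cry2, Dbp, Tef, Nr1d1, Nr1d2 and Rora. The name does not describe Rora, which encodes the activator of the second loop and is counted with the list. All 10 were among the 9810 genes with enough reads to be tested. RNA came from the gastrocnemius, a calf muscle, of male wild-type (WT) mice at day 4. The 5 control samples received 10% glycerol and the 3 sepsis samples received cecal slurry, a suspension of gut contents that causes polymicrobial infection. The labels give no strain, age or hour of collection, and they do not say whether each sample is its own animal, so the p-values cover the variation among these libraries, which may be technical. Because each sample is a single time, a shifted clock phase and a changed mean level cannot be told apart.

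Values are CPM, read counts scaled to the size of each library, from 3′-end libraries, in which a transcript gives about the same number of reads whatever its length, so they were not divided by length. Libraries held 3086277 to 4016329 counts in controls and 3337851 to 3765726 in sepsis. All 9 fibre markers listed for the tissue were detected. Their summed level was 212509 to 248635 CPM in controls and 101095 to 130803 CPM in sepsis, and 8 of the 9 fell. Of the neutrophil markers, 3 of 6 had enough reads and all 3 rose, with a summed level of 0.602 to 3.82 CPM in controls and 61.7 to 139 CPM in sepsis. In controls the neutrophil markers Ly6g and Retnlg had no read. Of the leukocyte and macrophage markers, 4 of the 5 tested rose (49.9 to 121 CPM in controls, 222 to 359 CPM in sepsis). All 5 fibro-adipogenic markers fell (804 to 1469 CPM against 256 to 366 CPM). Over all genes tested 25.2% were called higher and 25.2% lower. Mitochondrial transcripts took 21.7% to 26.7% of counts in controls and 12.6% to 16.9% in sepsis. In a whole muscle, fewer cells of a type and less RNA per cell cannot be told apart, and the part of these shifts in the clock results was not tested.

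The controls were not uniform in their clock genes, and controls 1 and 5 stood apart in some of these genes, most clearly in Dbp. Dbp, an output gene that follows the clock with a large amplitude in many tissues, had 68.6 and 98.1 CPM in controls 1 and 5 and 6.28, 5.12 and 7.59 CPM in controls 2, 3 and 4. In 7 of the 10 genes (Per2, Per3, Cry2, Dbp, Tef, Nr1d1 and Nr1d2) controls 1 and 5 were the highest controls. The margin was small in some of them. Control 1 had 205 CPM against 198 CPM in control 4 for Tef, and 62.5 against 58.9 CPM for Nr1d1. For Cry2 control 1 had 16.7 CPM against 13.9 CPM in control 3. The share of all genes with this order was not counted, and the pair was picked after these values were seen. In Cry1 they were the lowest. Arntl, whose expression runs opposite to Dbp in a normal cycle, was also lowest in these libraries, with 3.61 and 3.19 CPM against 11.3, 11.1 and 9.04 CPM in controls 2, 3 and 4. Nfil3, the repressor at D-boxes, had 10.3 and 4.78 CPM against 22.9, 34.3 and 30.4 CPM. Controls 1 and 5 held 4016329 and 3525583 counts, and the other controls 3086277 to 3756759. Haemoglobin reads were 0.0109% and 0.0843% of counts in controls 1 and 5, and 0.00381% to 0.0852% in the others. Mitochondrial transcripts took 26.7% and 21.7% of counts in controls 1 and 5, the highest and lowest shares among the controls. Over all genes controls 1 and 5 were the control pair least like each other, with a chi-square per degree of freedom of 6.86 between them. The part of these values in the split was not tested. Where leaving out controls 1 and 5 changed a call or a direction, or moved a value by over 1.5 times, the value without them is also given.

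**Figure D1:**
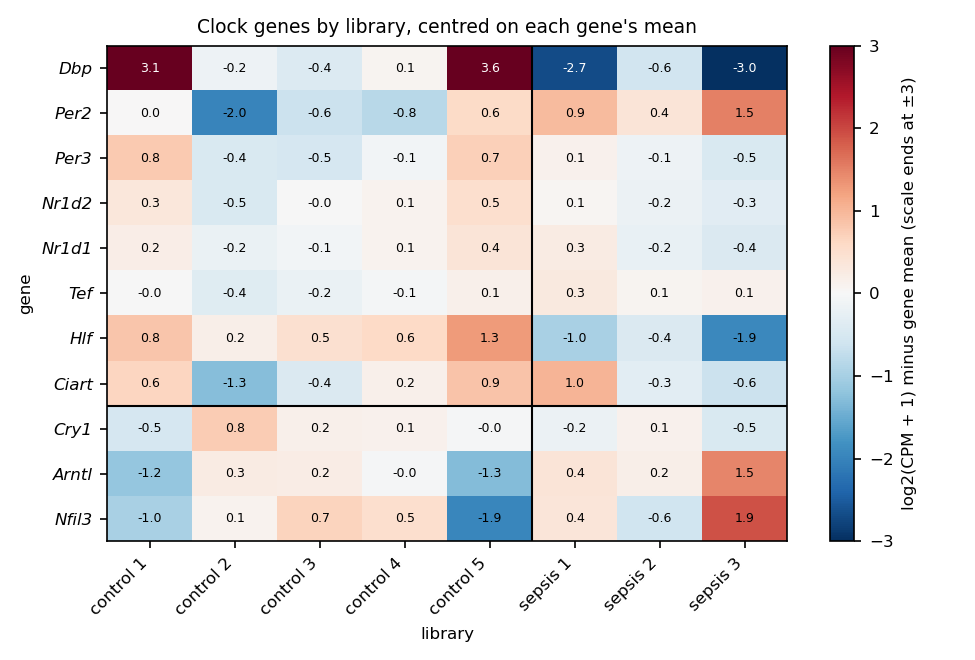
Heat map of log2(CPM + 1) minus each gene's mean over the 8 libraries, with genes as rows and libraries as columns. The rows were picked from genes in which controls 1 and 5 were the highest or the lowest controls. Per1, Rora and Clock, which had another order, are not shown. Dbp is the most uneven row, high in controls 1 and 5 (68.6 and 98.1 CPM) and lowest in sepsis 3 (0 CPM), while Arntl and Nfil3 are low in controls 1 and 5.

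Promoter sequence was searched for exact copies of clock elements close before the starts of these genes. RefSeq windows (GRCm38.p6) of 250 bases before the start were available for 9 of the 10, all but Per2. They were searched on both strands for the E-box CACGTG, the D-box TTATGTAA or TTACGTAA, and the ROR half-site AGGTCA. These letters occur in 6.02%, 0.931% and 14% of all 32851 such windows. The stretches that hold an E-box or D-box follow, 5′ to 3′ on the gene's strand, with matches in capitals. They are shown because Per1 rose, Per3, Cry1 and Tef did not pass the test, and D-boxes are where DBP, TEF and NFIL3 bind. Per1 and Tef have more than 1 annotated start, and the first is shown.
Per1, plus strand, chr11:69098763-69098837: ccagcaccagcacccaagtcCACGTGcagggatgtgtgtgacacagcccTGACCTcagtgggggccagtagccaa
Per3, minus strand, chr4:151044796-151044890: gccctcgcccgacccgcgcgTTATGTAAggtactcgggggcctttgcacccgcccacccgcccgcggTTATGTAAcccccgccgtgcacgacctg
Cry1, minus strand, chr10:85185089-85185134: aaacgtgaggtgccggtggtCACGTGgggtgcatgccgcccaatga
Tef, plus strand, chr15:81802526-81802571: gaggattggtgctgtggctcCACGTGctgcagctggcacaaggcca

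The capitals in Per1 mark an E-box and, read on the other strand, the half-site letters AGGTCA. The bases beside a half-site were not checked, so a match is not a full ROR element. Per3 has 2 copies of the D-box, starting at positions -205 and -158 relative to the gene start. The E-box of Cry1 starts at -60 and that of Tef at -127, and the other Tef start has an E-box at -138. The Nr1d2 window held 1 ROR half-site, and the windows of Cry2, Dbp, Rora and Nr1d1 and the other Per1 start held none of these letters. Elements outside these windows or in other spellings were not searched, so a window without a match does not mean a gene without clock elements. Genes with an E-box were found both among those that rose (Per1) and among those that did not pass (Cry1, Tef).

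The comparison of sepsis with control asks how the clock's transcripts differ in septic muscle. Cry2, Rora, Per1 and Per2 rose, and the other 6 did not pass the threshold, a Benjamini-Hochberg adjusted p of 0.05 over all 9810 genes. The share called was 4 of 10, against 50.4% of all genes tested. These 4 of 10 higher and 0 of 10 lower stand beside 25.2% higher and 25.2% lower over all genes tested. The median log2 fold change of the 10 was 0.03, against 0.01 over all genes. By edgeR's quasi-likelihood test 6 of the 10 had an unadjusted p under 0.05, which adds Dbp and Tef, against 56.2% of all genes tested. DESeq2 called 4 higher and Dbp lower. Groups did not overlap in 4 of the 10 (Per1, Cry2, Dbp and Rora), against 47.5% of all genes tested. Without controls 1 and 5, 5 were higher and none lower.

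**Figure D2:**
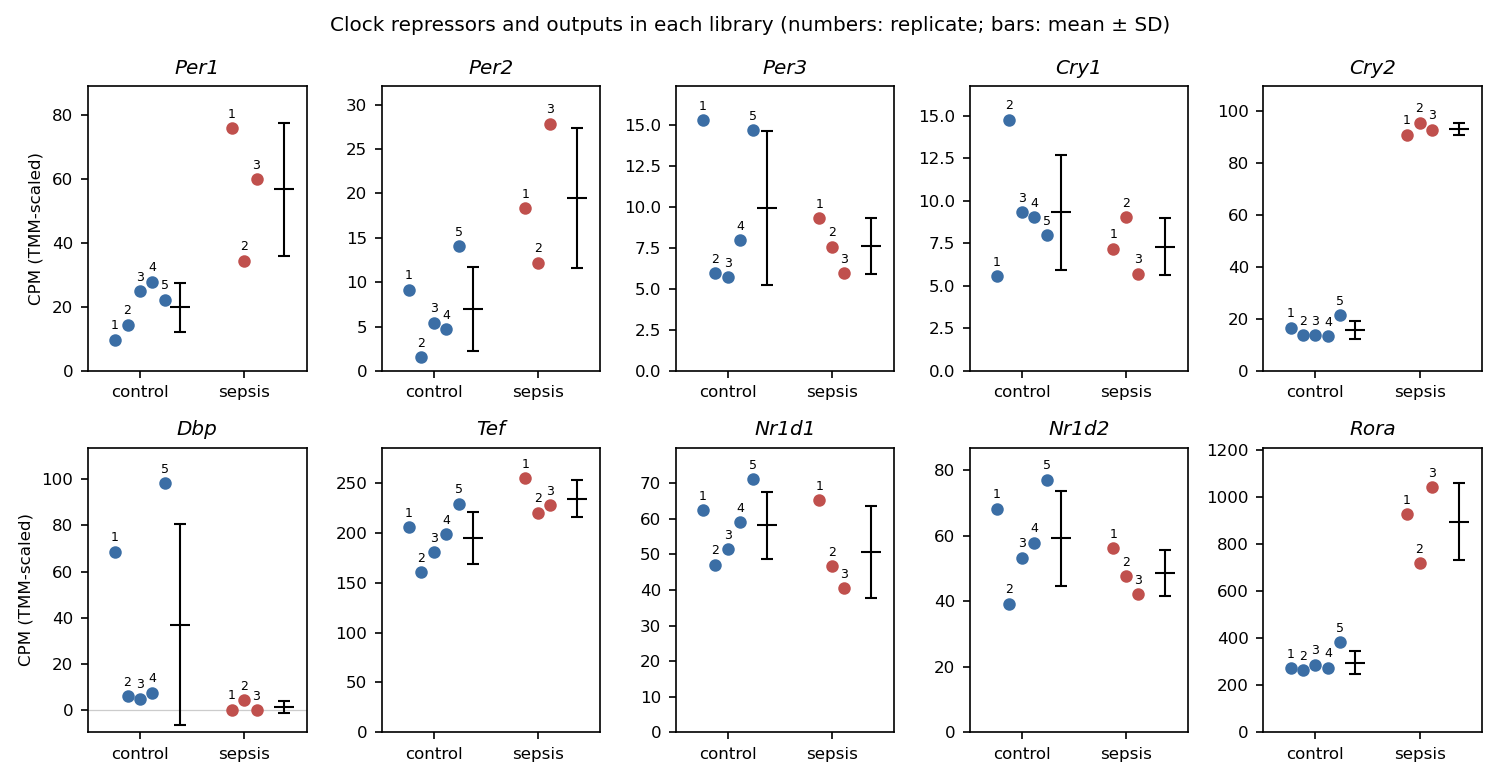
CPM of each of the 10 genes in every library, with numbers for replicates and bars for mean ± SD (5 controls, 3 sepsis). All septic libraries lie above all controls for Cry2, Rora and Per1, the highest control of Per2 (14.0 CPM) lies above its lowest septic library (12.2 CPM), and Dbp is split within the controls.

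Among the negative-limb repressors the Cryptochromes diverged. Cry2 (ENSMUSG00000068742) had 16.7, 13.8, 13.9, 13.4 and 21.3 CPM in controls 1 to 5 and 91.0, 95.6 and 92.9 CPM in sepsis 1 to 3. The septic libraries were close to each other and all far above the controls. The mean was 15.8 ± 3.36 CPM in controls (SD, n = 5) and 93.2 ± 2.32 CPM in sepsis (n = 3). Cry2 thus rose 5.87-fold (log2 fold change 2.55, SE 0.15, edgeR quasi-likelihood test, Benjamini-Hochberg adjusted p = 4.41e-08). Cry2 overlaps the gene D930015M05Rik on the opposite strand by 295 exonic bases in GENCODE M21. As the strand setting of the counting is not given, reads of the 2 genes may not be fully separated. Cry1 (ENSMUSG00000020038) had 5.55, 14.8, 9.34, 9.04 and 7.97 CPM in controls and 7.18, 9.03 and 5.71 CPM in sepsis. All septic values of Cry1 fell within the range of the controls, and its log2 fold change was -0.34 (SE 0.29, edgeR adjusted p = 0.352), or -0.58 without controls 1 and 5 (0.137). Within a library, where scaling cancels, the log2 ratio of Cry1 to Cry2 reads was -0.79 ± 0.67 in controls and -3.65 ± 0.30 in sepsis. This ratio was below every control in all 3 septic libraries, with p = 0.0179 in a two-sided exact permutation test, the smallest possible, and 0.0357 adjusted over 4 ratios. As Cry1 itself did not pass, the ratio largely restates the rise of Cry2.

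Of the Period genes, whose proteins partner CRY, Per1 and Per2 rose and Per3 did not pass, and the differences among the 3 were not tested. Per1 (ENSMUSG00000020893), also known as a gene induced directly by glucocorticoids, had 9.72, 14.4, 25.0, 27.8 and 22.3 CPM in controls and 75.8, 34.5 and 59.8 CPM in sepsis. All septic libraries exceeded all controls, with sepsis 2 nearest to them. Per1 rose 2.86-fold (log2 fold change 1.52, SE 0.34, edgeR adjusted p = 0.00416). Control 1 was the lowest in Per1, although it was among the 2 highest in Per2 and Per3.

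Per2 (ENSMUSG00000055866) had 9.16, 1.57, 5.42, 4.70 and 14.0 CPM in controls and 18.4, 12.2 and 27.9 CPM in sepsis. The groups overlapped through control 5 and sepsis 2. It rose 2.76-fold (log2 fold change 1.46, SE 0.49, edgeR adjusted p = 0.0313). The call was lost without control 3, control 4, sepsis 1 or sepsis 3, at adjusted p-values of 0.0673, 0.0633, 0.0742 and 0.141, and with no filter on low counts, at 0.0909. Without controls 1 and 5 the log2 fold change was 2.31 (adjusted p = 0.00200).

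Per3 (ENSMUSG00000028957) had 15.3, 5.96, 5.72, 7.96 and 14.7 CPM in controls and 9.31, 7.56 and 5.94 CPM in sepsis. All septic values were below controls 1 and 5, and those of sepsis 2 and 3 lay within the range of controls 2 to 4. Its log2 fold change of -0.40 (SE 0.35, edgeR adjusted p = 0.362) became 0.23 without controls 1 and 5, at an adjusted p of 0.557.

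In the receptor loop the activator rose and no change passed the test for the repressors. Rora (ENSMUSG00000032238), the most abundant of the 10, had 273, 264, 287, 275 and 383 CPM in controls and 926, 717 and 1041 CPM in sepsis. Every septic library lay well above control 5, the highest control. The means were 296 ± 49.1 and 895 ± 164 CPM, and Rora rose 3.02-fold (log2 fold change 1.59, SE 0.15, edgeR adjusted p = 1.86e-06). Rora overlaps the gene Gm15511 on the opposite strand by 82 exonic bases, with the limit given for Cry2. Rorb, a gene of the same receptor family with 20 control reads and 5 septic reads in all, was not tested.

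Nr1d1 (ENSMUSG00000020889) had 62.5, 47.1, 51.5, 58.9 and 71.1 CPM in controls and 65.2, 46.6 and 40.4 CPM in sepsis. Nr1d2 (ENSMUSG00000021775) had 68.3, 39.2, 53.3, 57.9 and 77.1 CPM in controls and 56.1, 47.7 and 42.2 CPM in sepsis. In both genes the groups overlapped and the order of the controls was the same. Their log2 fold changes were -0.20 (SE 0.18) and -0.28 (SE 0.19), at edgeR adjusted p-values of 0.357 and 0.239. Without controls 1 and 5, the highest controls in both genes, they were -0.0445 and -0.0350, at 0.872 and 0.897. An interval of 2 SE on each side runs from -0.55 to 0.15 for Nr1d1 and from -0.67 to 0.10 for Nr1d2. Scaled by library totals alone, which moved the median of all genes to 0.43, both changed sign, to 0.21 and 0.13.

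The balance of repressor and activator was read within each library. The log2 ratio of Nr1d1 to Rora reads was -2.12, -2.48, -2.47, -2.21 and -2.43 in controls and -3.82, -3.94 and -4.68 in sepsis. It was lower in 3 of 3 septic libraries, by 1.80 on average (two-sided exact permutation p = 0.0179, 0.0357 adjusted over 4 ratios). As Nr1d1 itself did not pass, this ratio largely restates the rise of Rora and is not a separate result. Nr1d1 overlaps the thyroid hormone receptor gene Thra on the opposite strand by 263 exonic bases in GENCODE M21. The strand setting of the counting is not given in the sources used here, so reads of the pair may not be fully separated. Thra had 72.7 to 102 CPM in controls and 46.8 to 68.1 CPM in sepsis and fell (log2 fold change -0.60, SE 0.15, edgeR adjusted p = 0.00559), a call lost with library totals alone (adjusted p = 0.255).

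**Figure D3:**
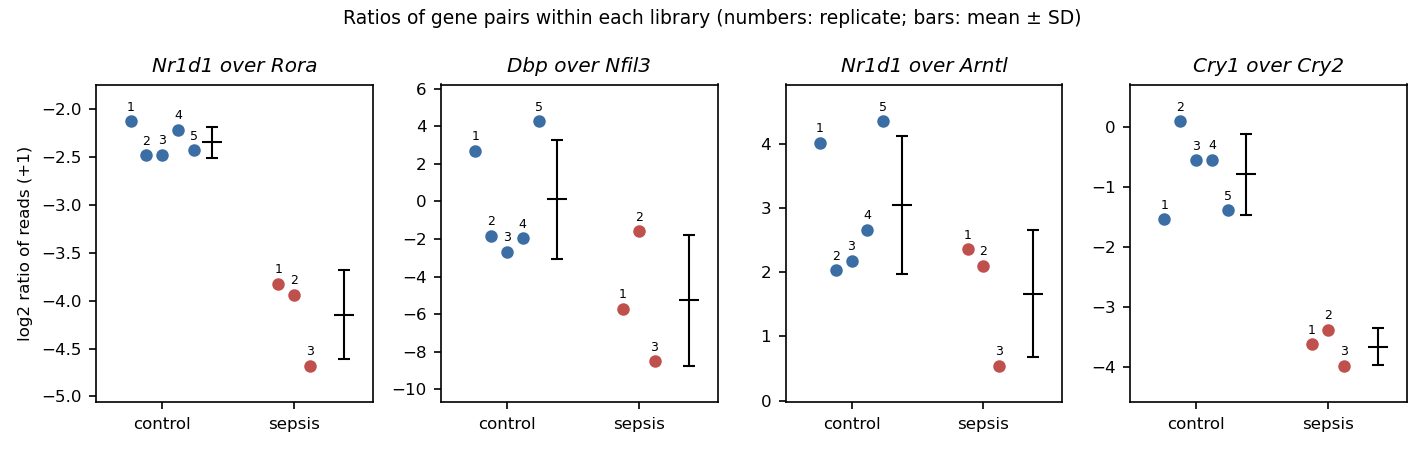
Log2 ratios of reads of paired clock genes within each library (1 read added to each gene), with numbers for replicates and bars for mean ± SD. Nr1d1 over Rora and Cry1 over Cry2 are lower in all 3 septic libraries than in all 5 controls, and Dbp over Nfil3 and Nr1d1 over Arntl overlap between groups.

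Of the D-box family, Dbp and Tef did not pass the test, and Hlf, given below, fell. Dbp (ENSMUSG00000059824) had 247, 20, 17, 21 and 308 reads in controls and 1, 21 and 0 reads in sepsis, which is 0.266, 4.41 and 0 CPM in sepsis. The absence of reads in sepsis 3 allows a level of up to 0.685 CPM (3 reads). Every septic library was below every control, but the highest of them (4.41 CPM) was close to controls 2 to 4 (5.12 to 7.59 CPM). The log2 fold change was -4.45 (SE 1.70) and did not pass, at an edgeR adjusted p of 0.0688. It passed without control 3 (0.0282), without robust dispersion (0.0114) and in DESeq2 (0.00921). Its size rested on few libraries. It was -4.11 without control 1, -3.72 without control 5 and -1.88 without both (edgeR adjusted p = 0.129 without both). Without sepsis 2 it was -7.87 (edgeR adjusted p = 0.0934). Dbp overlaps the sphingosine kinase gene Sphk2 on the opposite strand by 539 exonic bases in GENCODE M21. Sphk2 had 21.2 ± 3.96 CPM in controls and 21.3 ± 4.91 CPM in sepsis, and its controls 1 and 5 (20.5 and 18.2 CPM) were not its highest.

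Tef (ENSMUSG00000022389) had 205, 160, 180, 198 and 229 CPM in controls and 255, 220 and 227 CPM in sepsis. The groups overlapped only through control 5. Its log2 fold change of 0.27 (SE 0.12) did not pass (edgeR adjusted p = 0.0888), but 0.39 passed without controls 1 and 5 (0.0364) and 0.68 with library totals alone (0.000199). Tef overlaps the gene Gm17597 on the opposite strand by 193 exonic bases, with the limit given for Cry2. Hlf, the remaining gene of this D-box family, fell from 25.5 ± 7.86 to 7.10 ± 3.86 CPM (log2 fold change -1.83, SE 0.36, edgeR adjusted p = 0.00135). The log2 ratio of Dbp to Nfil3 reads was 2.71, -1.82, -2.68, -1.95 and 4.27 in controls and -5.71, -1.58 and -8.50 in sepsis. Sepsis 2 lay within the range of the controls, and the difference of -5.37 had p = 0.125 (two-sided exact permutation test, 0.167 adjusted over 4 ratios). The difference was -3.12 without controls 1 and 5 and lay between -7.21 and -3.76 with single libraries left out.

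Reads of 3′ ends do not grow with transcript length, so the levels of the 10 genes are set side by side. In controls the means ran Rora, Tef, Nr1d2, Nr1d1, Dbp, Per1, Cry2, Per3, Cry1, Per2, from 296 to 6.97 CPM. Only Rora and Tef were separated from the next gene by more than the SDs of both. In sepsis the order was Rora, Tef, Cry2, Per1, Nr1d1, Nr1d2, Per2, Per3, Cry1, Dbp, from 895 to 1.56 CPM. Cry2 ranked 7 in controls and 3 in sepsis, and Dbp ranked 5 and 10. In sepsis the neighbours Per1 and Nr1d1, Nr1d1 and Nr1d2, and Per3 and Cry1 were not separated by more than the SDs of both, and every other neighbouring pair was.

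The spread among controls was itself uneven. By the SD of log2(CPM + 1) over the 5 controls, Dbp ranked 8th (SD 1.94), Per2 29th (0.96), Per3 118th (0.62) and Per1 136th (0.60) of 6975 genes whose average log2 CPM reached 3. The median of those genes was 0.18, and all 10 clock genes were above it. Counting error adds to the spread of low genes such as Per2. Outside the 10, Nfil3 ranked 22nd (1.11) and Arntl 54th (0.77). Tef, Rora and Nr1d1 were nearest to that median, with SDs of 0.19, 0.22 and 0.23. In sepsis the SD of Cry2 was 0.04, against 0.27 for the median gene.

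The core activators were partly higher. Clock rose 1.55-fold, from 29.4 ± 6.91 to 45.6 ± 4.75 CPM (log2 fold change 0.64, SE 0.18, edgeR adjusted p = 0.00936), a call lost without controls 1 and 5 (0.0554). Arntl had 12.5, 10.7 and 27.6 CPM in sepsis, a log2 fold change of 1.15 (SE 0.45) that did not pass (adjusted p = 0.0583, and 0.142 without controls 1 and 5, at 0.69). Arntl passed with library totals alone, without robust dispersion, in DESeq2, and without control 2, control 3 or sepsis 2, at 0.0124 to 0.0483. Sepsis 3 was highest in Arntl and Nfil3 (27.6 and 82.4 CPM) and had no read of Dbp. The log2 ratio of Nr1d1 to Arntl was 3.05 ± 1.07 in controls and 1.67 ± 0.98 in sepsis, with overlap (two-sided exact permutation p = 0.179, also after adjustment). The difference of -1.38 was -0.62 without controls 1 and 5 and -0.82 without sepsis 3. Npas2, a substitute for CLOCK, and Arntl2 had 6 and 9 control reads and 3 and 8 septic reads in all, and were not tested.

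Of 38 other clock genes in 6 lists 34 were tested, of which 11 rose, 6 fell and 17 did not pass, beside the 50.4% of all genes that were called. Library totals alone gave 17 higher and 4 lower. Without controls 1 and 5, 9 were higher and 6 lower, and without sepsis 1, 11 were higher and 10 lower. In the list of other transcription regulators, Hlf and Bhlhe41 fell, beside 25.2% lower over all genes, and 3 of 5 tested did not pass. Bhlhe41 (DEC2), a repressor at E-boxes, fell 4.28-fold, from 76.2 ± 21.7 to 17.9 ± 10.1 CPM (log2 fold change -2.10, SE 0.40). Its relative Bhlhe40 had -0.73 (SE 0.29) and did not pass (adjusted p = 0.0538), although 7 of 17 alternatives called it lower. Without controls 1 and 5, its highest controls, it was -0.30 (0.321). Ciart, which encodes the repressor CHRONO, had 5.15 ± 3.14 and 5.33 ± 4.16 CPM, and its controls 1 and 5 were the highest controls. Its log2 fold change of 0.0077 was 0.77 without them (adjusted p = 0.354).

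**Figure D4:**
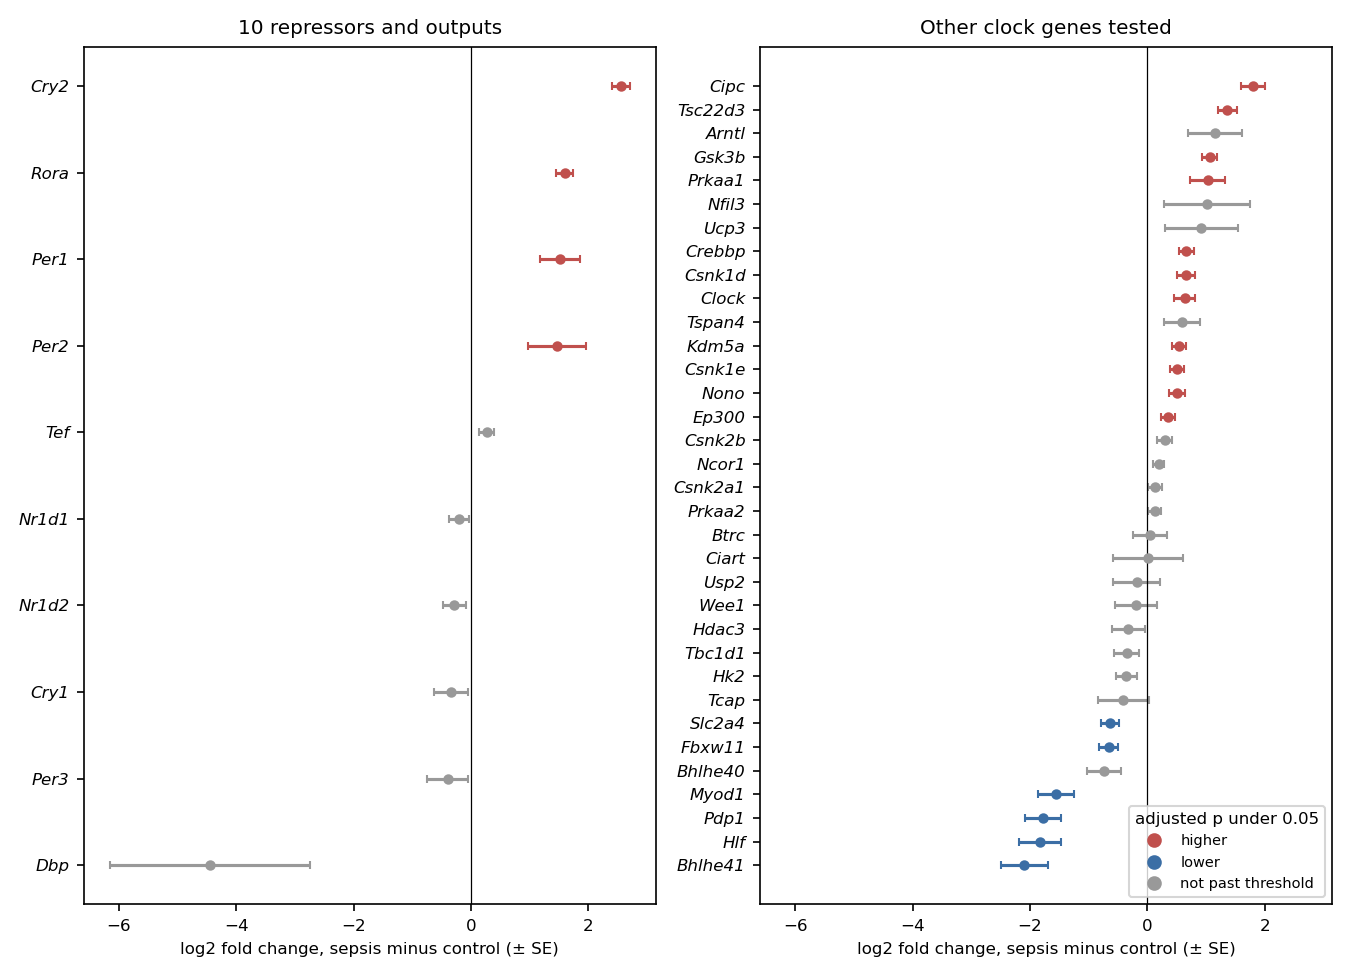
Log2 fold changes (sepsis minus control, ± SE, edgeR) of the 10 genes on the left and of the 34 other clock genes tested on the right, coloured by call. Cry2, Rora, Per1 and Per2 lie above 0, Dbp has the widest error, and on the right Cipc (1.80) and Bhlhe41 (-2.10) lie at the ends.

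Among kinases and ubiquitin ligases that set the stability of PER and CRY, 4 of 9 tested rose and 1 fell, with a median of 0.30. Over all genes tested 25.2% were higher and 25.2% lower. The casein kinase 1 genes Csnk1d and Csnk1e, which phosphorylate PER, rose 1.58-fold and 1.43-fold, and Gsk3b, which phosphorylates several clock proteins, rose 2.09-fold. Prkaa1, an AMPK subunit gene, rose 2.04-fold, a call lost without sepsis 2 (edgeR adjusted p = 0.0516). Fbxw11, a ligase adaptor for PER, fell 1.58-fold, a call lost with library totals alone (0.250).

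Of 7 coregulators 5 rose, beside 25.2% of all genes tested. Cipc, an inhibitor of CLOCK, rose 3.49-fold, from 17.9 ± 5.99 to 62.7 ± 2.78 CPM (log2 fold change 1.80, SE 0.20, edgeR adjusted p = 1.06e-05). Like Cry2 it had closely grouped septic libraries and its highest controls were 5 and 1. Crebbp and Kdm5a rose 1.58-fold and 1.46-fold. Nono and Ep300 rose 1.42-fold and 1.27-fold. The Ep300 call was lost without control 1, control 3 or sepsis 3, and without controls 1 and 5, at adjusted p-values of 0.0536 to 0.0758 and log2 fold changes of 0.29 to 0.35, against 0.35 in all libraries.

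Of 4 genes that cycle in many tissues, beside 50.4% called over all genes tested, only Tsc22d3 passed. This gene, which is also induced by glucocorticoids, rose 2.58-fold, from 152 ± 28.3 to 391 ± 91.0 CPM. Usp2, a deubiquitinase gene, had 487, 295 and 125 CPM in sepsis and 253 to 441 CPM in controls, with controls 1 and 5 the highest controls. Beside 25.2% lower over all genes tested, 3 of 7 muscle genes reported to depend on the clock fell, with a median of -0.41. They were Pdp1, a pyruvate dehydrogenase phosphatase gene (3.44-fold), the myogenic factor gene Myod1 (2.95-fold), and Slc2a4, which encodes the glucose transporter GLUT4 (1.55-fold). The Slc2a4 call was lost with library totals alone (adjusted p = 0.186). The fibre markers fell beside these muscle genes, as given above, and their part was not tested.

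For each of the 10 genes the gene with the most similar profile was taken, by root mean square distance of centred log2 CPM over the 8 libraries, among 6974 genes. Cry2 was nearest to Clip1 (distance 0.12), Rora to Rbl2 (0.11), Per1 to Pim3 (0.22) and Per2 to Ddx27 (0.48). Nr1d1 was nearest to Ino80c (0.11), Nr1d2 to Timm29 (0.13), Tef to Aup1 (0.05), Per3 to Atn1 (0.25) and Cry1 to Chm (0.20). The distance was largest for Dbp, whose nearest gene, Mylk4, was 1.28 away. None of these nearest genes was a clock gene of the lists used here.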

How the data were processed

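Per the labels' protocols, RNA was column-purified and 25 ng entered a QuantSeq 3′ kit. The build was GRCm39, per the submitters' processing notes. The aligner, counter, strand setting and annotation release are not given in the sources used here. Raw counts per gene were deposited by the authors, with 1 column per library. Genes with a minimum count of 10 (minimum total 15) were tested with edgeR 4.0.16 in R 4.3.3 (TMM scaling, robust quasi-likelihood F test, 5 controls against 3 sepsis libraries, Benjamini-Hochberg adjustment over 9810 genes, threshold 0.05). CPM use TMM-scaled library sizes, and 1 read was 0.210 to 0.362 CPM. The SE is the absolute log2 fold change over the square root of F. Intervals of 2 SE include the spread between libraries, and the floor of 3 reads covers counting error only. Ratios within a library were compared by an exact permutation test over all 56 assignments of libraries to groups. DESeq2 1.42.0, other scalings and filters, a replicate block and left-out libraries were alternatives, and leaving out controls 1 and 5 together was chosen after seeing the data. The procedure was also run on simulated data. Far fewer genes were changed there than were called here, so that run does not give the error rate in these data.

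The genes and lists were chosen with earlier results of these data known, and some clock genes are not reported here. The text names all 10 genes, list members past the threshold, the core activators, Nfil3, Thra and the nearest genes by profile. Sphk2, Ciart, Bhlhe40, Usp2 and Rorb were named after their values were seen. Of T and B lymphocyte markers none of 6 had enough reads (up to 1.20 CPM summed in controls and 0.840 in sepsis). Of 6 endothelial markers 3 rose and 2 fell, of 5 smooth muscle and pericyte markers 3 fell, of 4 adipocyte markers tested 1 rose, and of 4 Schwann cell markers tested 2 fell. No pair of libraries in a group agreed within sampling noise (chi-square per degree of freedom 2.04 to 6.86 in controls and 11.0 to 26.3 in sepsis). Promoter sequences are RefSeq's (GRCm38.p6), and overlaps of genes are from GENCODE M21, an annotation of an earlier build than the counts.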

Additional observations from a re-analysis of the deposited data

Results flagged for a closer look

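Rora in control 5 was at 383 CPM, apart from the other controls at 264 to 287 CPM. The gap to the nearest control was 0.802 of the range, above Dixon's critical value of 0.71 for 5 samples. Of 14 measures tested this way in the controls it was the only one flagged, and chance flags about 1 in 20. The split of Dbp between controls 1 and 5 and the others is not of this kind, since 2 libraries share it.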

How the results depend on the processing

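Cry2, Rora and Per1 kept their direction and their call in all 17 alternatives, with log2 fold changes of at least 2.50, 1.47 and 1.25. Among the 10 genes, those called higher numbered 3 to 5. Those called lower were 1 without robust dispersion and 1 in DESeq2, and 0 to 1 with single libraries left out. In the other clock lists those higher were 17 with library totals alone, and those lower numbered 6 to 10 with single libraries left out, the 10 without sepsis 1. Over all genes library totals alone gave 4256 higher and 1387 lower, instead of 2475 and 2468. With those totals the sign turned for Per3 (0.0203), Cry1 (0.0828), Nr1d1 (0.21), Nr1d2 (0.13), Usp2 (0.23), Atn1 (0.0241), Chm (0.0716), Ino80c (0.17) and Timm29 (0.13), none of them called. The sign also turned without controls 1 and 5 for Per3 (0.23), Usp2 (0.0556) and Sphk2 (-0.0573), and with upper-quartile factors or a minimum count of 20 for Ciart (-0.0417 and -0.0276) and Sphk2 (-0.0236 and -0.0149). With single libraries left out Ciart lay between -0.81 and 0.34, Sphk2 between -0.17 and 0.17 and Usp2 between -0.71 and 0.19. The cause was not tested. The log2 ratio of Nr1d1 to Rora differed by -1.97 to -1.54 and that of Cry1 to Cry2 by -3.05 to -2.65 with single libraries left out, and by -1.76 and -3.32 without controls 1 and 5. Their adjusted p-values (0.0571, 0.0952 and 0.2) then missed the threshold because fewer samples allow no smaller p than 0.0286, 0.0476 or 0.1. Same-numbered libraries did not visibly deviate together (correlations -0.12, 0.04 and -0.02, against -0.09 to 0.13 for libraries of unlike number). Correlations this weak over 3 pairs cannot settle whether the numbers mark a pairing. With the replicate block all genes gave 1741 higher and 1884 lower, the 10 genes 4 higher and 0 lower and the other clock lists 10 and 6, and Ep300 and Nono lost their call (0.118 and 0.0700). Depth limits Per2, Per3 and Cry1 most, with 113 to 161 reads over the controls and 95 to 249 over the septic libraries. It limits Dbp in sepsis, with 22 reads.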
